A study of Mus musculus with 6 samples.

Results

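The genes examined here encode the machinery that carries proteins into mitochondria, in wild-type mouse embryonic fibroblasts (MEFs) treated with small molecules that act on mitofusins. They were chosen by name from the table of read counts. The list took every Timm or Tomm symbol followed by a digit together with Mtx1, Mtx2, Romo1, Grpel1, Grpel2, Pmpca, Pmpcb, Pam16, Chchd4 and Gfer, without processed pseudogenes named as such, and asked for at least 10 counts in each library. Of 55291 genes listed, 36 symbols matched the names and 33 had enough counts. Timm8a2 (0 to 3 counts), Tomm20l (0 counts) and Tomm6 (9 to 18 counts) did not.

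Nearly all mitochondrial proteins are made in the cytosol and enter the organelle through multi-subunit gates. The translocase of the outer membrane, TOM, is the common entrance, with receptors that read targeting signals and a beta-barrel pore. Past it the routes divide. The TIM23 complex passes proteins with a presequence across the inner membrane to a motor that pulls them into the matrix, where the presequence is cut off. Small TIM chaperones escort hydrophobic proteins through the intermembrane space to the outer membrane or to the TIM22 carrier translocase, and a disulfide relay traps small cysteine-rich proteins, the small TIMs among them, in that space. Mitofusins, the targets of the compounds, are themselves outer membrane proteins that tether and fuse mitochondria.

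Treatments were compared in 6 polyA RNA libraries. Vehicle (n = 2) was set against MASM7, a mitofusin activator given at 1 µM for 6 h (n = 2), and MFI8, a mitofusin inhibitor given at 20 µM for 6 h (n = 2). The cells were a wild-type MEF line received from another laboratory, and neither a mouse strain nor the age of the embryos was given in the sources used here. The compounds were dissolved in DMSO, the duration of vehicle treatment was not given in those sources, and no other agent or deletion was named for any group. Because the compounds were used at different concentrations, compound and concentration cannot be told apart in any comparison between them. The replicates were described as independent biological replicates.

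Library totals ran from 22791792 to 30677751 counts, and the import genes took 0.277 to 0.294% of them. Of 12 fibroblast markers, 10 had a mean of at least 1 TPM, a measure of transcripts per gene scaled for length and depth, Thy1 (0.283 to 0.751 TPM) and Lum (0.048 to 0.194 TPM) being the exceptions. All epithelial, endothelial and pluripotency markers were under 1 TPM. Of the immune markers, Cd68 stood at 8.91 to 11.9 TPM while Ptprc reached at most 0.013 TPM and Adgre1 and Cd3e were at 0. RNA per cell and cell numbers cannot be told apart in such bulk libraries.

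By the place where their products work, 9 of the 33 genes belong to the outer membrane, 10 to the inner membrane, 8 to the intermembrane space and 4 to the matrix. Tomm34, whose product is a cytosolic co-chaperone, is the cytosolic member. Tomm6os was left without a place, since it is annotated as an antisense RNA at the Tomm6 locus and encodes no import subunit. The outer membrane genes are Tomm20 and Tomm70a (receptors), Tomm22 (the central receptor and organizer), Tomm40 (the pore), Tomm40l (a second form of the pore), Tomm5 and Tomm7 (small subunits), and Mtx1 and Mtx2 (metaxins, which work with the machinery that inserts beta-barrel proteins). The inner membrane genes are Timm23, Timm17a and Timm17b (the presequence channel), Timm50 (its receptor), Timm21 and Romo1 (accessory subunits), Timm44 and Pam16 (which hold the motor at the channel), and Timm22 and Timm29 (the carrier translocase).

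Promoters were read for letters recognized by factors known to act on genes of mitochondrial proteins. A RefSeq window on GRCm38.p6, from 250 bases before to 50 after the annotated start, was found for 29 of the 33 genes and not for Grpel2, Timm21, Tomm40l and Tomm7. The letters CCGGAAGT, read by the ETS family factor GABPA, were present on either strand in 8 of 29 windows (27.6%), against 9.52% of the windows of all genes tested for expression and 4.31% of all windows. The NRF1 core GCATGCGC occurred in 2 (6.90%, against 6.20% of tested genes) and the YY1 letters AAGATGGCG in 2 (6.90%, against 3.68%). TGACGTCA, the cyclic AMP response element, and TGATGNAAT, an ATF4 composite element, had no match in the 29 windows, against 3.66% and 0.55% of the windows of tested genes. At least 1 of the 5 motifs was present in 12 of 29 windows (41.4%, against 21.4%). ETS letters stood in 2 of 7 outer membrane windows and 3 of 9 inner membrane windows. The windows of the import genes had a median GC content of 59.7%, and those of all genes tested 61.3%. None of these letters contains another of the motifs.

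The matches that lie ahead of the RefSeq start site are shown 5′ to 3′ on the strand of the gene, 30 bases each, with the matched letters in capitals, because they show the same letters in genes of both membranes. Tomm70a and Mtx2 are outer membrane genes, Romo1, Timm23 and Timm29 inner membrane genes, Pmpcb and Grpel1 matrix genes and Timm13 a small TIM gene. The GENCODE models of Romo1, Pmpcb and Grpel1 start further upstream, so these 3 matches lie inside them. A match is a description of the sequence only. The first 6 carry the ETS letters and the last 2 the NRF1 core, in either orientation.
Tomm70a (chr16:57121623-57121652, + strand): gccttctgaccCCGGAAGTggttctcccct
Mtx2 (chr2:74825776-74825805, + strand): gggcggagcagCCGGAAGTgccggcgcgcg
Romo1 (chr2:156144162-156144191, + strand): agcccatgctcCCGGAAGTaactgcgctgt
Timm23 (chr14:32201921-32201950, - strand): tcgcgcttcccACTTCCGGgccgcacacag
Timm29 (chr9:21592498-21592527, + strand): gagctctgaccACTTCCGGgctccactcac
Pmpcb (chr5:21737133-21737162, + strand): ggagtcatgacCCGGAAGTacatctccact
Grpel1 (chr5:36465138-36465167, + strand): aaggggcgtccGCGCATGCtcagtgtgggc
Timm13 (chr10:80901143-80901172, - strand): ttatattgtacGCATGCGCagcggggaggt

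The import genes differed widely in level. On the TPM scale, which here divides counts by all annotated exonic bases of a gene, Tomm22 was the highest at a mean of 458 over the 6 libraries, and Tomm6os the lowest at 1.17. The order of genes therefore rests on the gene models as well as on the counts. Within TOM, the order of mean TPM was Tomm22 (458), Tomm5 (320), Tomm7 (262), Tomm70a (171), Tomm40 (112), Tomm20 (111) and Tomm40l (17.1). The libraries of Tomm40 (102 to 129 TPM) and Tomm20 (103 to 117 TPM) overlapped, whereas the other neighbours in this order did not. The central receptor and the small subunits were thus above the pore per exonic base, with 868 annotated bases for Tomm5 and 1125 for Tomm7 against 4513 for Tomm40. By mean CPM (counts relative to the library total, without regard to length), Tomm40 (143) was above Tomm7 (83.1) and Tomm5 (78.4). On that scale Tomm70a (471) was the highest of the import genes, and Tomm22 had 213. The main pore gene was above its second form in each library by 5.98 to 7.59 times.

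In TIM23 the accessory subunit Romo1 was highest (214 to 283 TPM), followed by the receptor Timm50 (93.3 to 106 TPM). The channel genes were lower, with Timm23 at 54.3 to 64.0, Timm17b at 49.3 to 58.0 and Timm17a at 39.2 to 41.8 TPM. Timm17a and Timm17b encode alternative forms of the same channel subunit, and their TPM ratio lay between 0.693 and 0.836, so that Timm17b was above Timm17a in each library per exonic base. Without regard to length the order was the reverse, with mean CPM of 39.4 for Timm17b (2557 exonic bases) and 90.8 for Timm17a (7893 bases). Romo1 (747 bases, mean CPM 53.7) was likewise below Timm50 (2684 bases, 74.7) and Timm17a before division by length. Timm21 (23.0 to 25.9 TPM) and the motor gene Pam16 (13.9 to 17.2 TPM) were the lowest of the inner membrane, while Timm44 stood at 62.7 to 68.5 TPM. Of the carrier translocase, Timm29 (72.7 to 80.1 TPM) was above the channel gene Timm22 (46.9 to 51.3 TPM).

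The small TIM genes spread from Timm8b (352 to 370 TPM) and Timm13 (289 to 365 TPM) down to Timm10b (8.30 to 10.2 TPM). Timm9 and Timm10 encode partners in the same chaperone, yet Timm9 (27.99 to 31.8 TPM) had 0.146 to 0.173 of the level of Timm10 (174 to 197 TPM). Their annotated exonic lengths were 4282 and 815 bases, and their mean CPM, which takes no account of length, were 36.8 and 43.0. Of the disulfide relay, the oxidase gene Gfer (76.95 to 89.6 TPM) was above Chchd4 (42.7 to 45.4 TPM), which encodes the receptor that it reoxidizes. By mean CPM this order also turned, with 52.1 for Gfer (2231 exonic bases) and 64.2 for Chchd4 (5192 bases). In the matrix the presequence protease genes Pmpca and Pmpcb had a ratio of 2.47 to 2.80, and the nucleotide exchange factor genes Grpel1 and Grpel2 a ratio of 3.98 to 4.74. The metaxin ratio Mtx1 to Mtx2 was 0.543 to 0.701. These ratios are of RNA per exonic base and say nothing of protein.

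**Figure D1:**
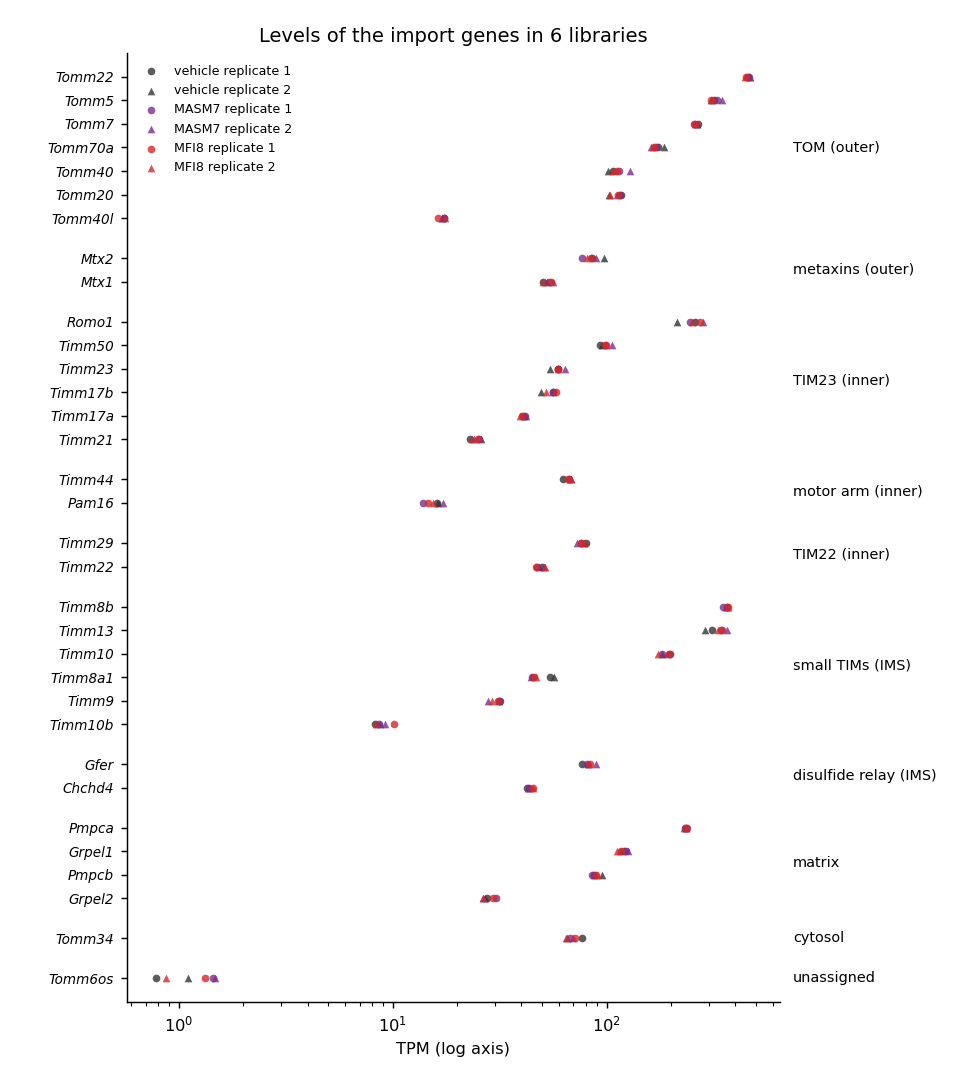
TPM of each of the 33 import genes (log axis) in the 6 libraries, grouped by complex or compartment (IMS, intermembrane space) and ordered by mean within each group; circles are replicate 1 and triangles replicate 2. The libraries of a gene lie close together compared with the distance between genes, with Tomm22 highest at a mean of 458 TPM and Tomm6os lowest at 1.17 TPM.

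Several levels depend on how reads were assigned. Exons of Tomm6 share 76.0% of their bases with Gm21981, an annotated protein-coding gene on the same strand, and Tomm6 had 9 to 18 counts and Gm21981 3 to 20. How reads shared by overlapping genes were treated is not given in the sources used here, so the level of this small TOM subunit was not analysed here. Overlapping genes on the opposite strand cover 64.3% of the exonic bases of Tomm40l (Nr1i3), 30.1% of Mtx1, 20.4% of Pmpca, 19.8% of Romo1, 18.7% of Pam16 and 15.6% of Timm8b. Timm10b, the lowest small TIM gene, is overlapped over 22.1% of its 3582 exonic bases, 376 of them by the protein-coding gene Gm45799 on the same strand, and 51.3% of Tomm6os is covered by genes of either strand. Timm23 has processed copies identical over 628 bases and a protein-coding copy, Gm10273, at 99.9% identity over 1121 bases, each with at most 8 counts, so its level is uncertain. Timm8a1 (1421 exonic bases) is identical over 612 bases to the pseudogene Gm9797, so its level is uncertain as well. Timm8a1 had 413 to 571 counts, while Gm9797 had 11 in each vehicle library, 19 and 24 under MASM7 and 14 and 15 under MFI8. Gfer shares 573 bases with Dst at 99.8% identity, and Dst had 6387 to 9376 counts against at least 1115 for Gfer, so the level of Gfer is uncertain too. Tomm20 matches Gm14494 at 99.5% over 435 bases (76 to 107 counts, against at least 3544 for Tomm20).

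Differences between groups were small, and none passed the test used, which took no account of replicate numbers. For the comparison of treatments, counts were fitted in edgeR for all 14290 genes with enough of them, with libraries scaled by TMM factors, and Benjamini-Hochberg adjusted p-values were called under 0.05. All 33 import genes were among the genes fitted. For MFI8 against vehicle, MASM7 against vehicle and MFI8 against MASM7, edgeR's quasi-likelihood test called 0 of the 33 genes and 0 of 14290 genes (0%). At an unadjusted p under 0.05 it had 3, 4 and 3 import genes (9.09%, 12.1% and 9.09%), against 9.86%, 10.2% and 7.18% of all genes. DESeq2 also called 0 import genes in each comparison, with 0.376%, 0.00747% and 0.227% of the genes it tested called, and limma on log2(TPM + 1) called 0 import genes and 0% of genes. With 2 libraries in a group, an exact permutation test of a single value cannot go below p = 0.333 (two-sided). Values per library are given as CPM, counts relative to the scaled library total, for a gene across libraries and as TPM between genes.

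The spread between replicates was small for the import genes, without matching for counts. Their median absolute difference between the replicates of a group was 0.0688 for vehicle, 0.067 for MASM7 and 0.058 for MFI8 on the log2 CPM scale, against 0.123, 0.103 and 0.108 over all genes tested. The gene that differed most between replicates was Tomm6os in vehicle (0.434) and MFI8 (0.563), where it had 15 to 25 counts, and Pam16 in MASM7 (0.313).

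Under MFI8 most import genes, though not all, lay slightly below vehicle. Over the 33 genes the median log2 fold change was -0.033, with 12 genes higher and 21 lower, against a median of 0.0027 over all genes. Both MFI8 libraries were below both vehicle libraries for 12 genes (36.4%, against 19.3% of all genes) and above them for 3 (9.09%, against 20.9%). Outer membrane genes had a median of -0.047 (2 higher and 7 lower), inner membrane genes -0.0074 (5 and 5), intermembrane space genes 0.012 (4 and 4) and matrix genes -0.038 (0 and 4). Leaving out 1 library, the outer median ran from -0.072 (without vehicle replicate 2) to -0.013 (without vehicle replicate 1). The inner median ran from -0.043 (without vehicle replicate 2) to 0.0026 (without MFI8 replicate 2), so its direction rests on single libraries. The median of the 33 genes was -0.0077 without vehicle replicate 1 and -0.056 without vehicle replicate 2, and it was -0.0031 on log2(TPM + 1), where 18 genes were lower and 15 higher and the median of all genes was 0.025. With GC and length offsets it was -0.021.

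Tomm70a, the receptor for chaperone-bound precursors such as metabolite carriers (chr16:57121703-57156705 on GRCm38), had 487 and 511 CPM in vehicle, 477 and 455 under MASM7, and 452 and 447 under MFI8. Both MFI8 libraries were below all others, and both MASM7 libraries were below vehicle. The log2 fold change of MFI8 against vehicle was -0.15 ± 0.051 (SE; edgeR unadjusted p = 0.0145, adjusted p = 0.412), and that of MASM7 against vehicle was -0.099 ± 0.051 (adjusted p = 0.531). The MFI8 value was -0.11 with offsets for GC content and gene length, -0.12 without vehicle replicate 2 and -0.18 without vehicle replicate 1. The MASM7 value was 0.0051 with these offsets, so its direction rests on that choice. It was -0.063 without vehicle replicate 2 and -0.065 without MASM7 replicate 2.

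Tomm22 (chr15:79670861-79673400), the TOM gene highest per length, had 217 and 218 CPM in vehicle, 218 and 219 under MASM7 and 205 and 203 under MFI8. Only the MFI8 libraries stood apart among the 6. The log2 fold change of MFI8 against vehicle was -0.092 (95% interval -0.20 to 0.015; edgeR adjusted p = 0.557; -0.045 with GC and length offsets), and that of MFI8 against MASM7 was -0.099 (-0.21 to 0.0080; adjusted p = 0.704).

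Timm8a1 was lower with each compound. This X-linked small TIM gene (chrX:134537256-134541865) encodes a chaperone that works with the product of Timm13. It had 21.9 and 22.7 CPM in vehicle, 18.3 and 18.1 under MASM7, and 17.99 and 18.4 under MFI8. The 4 treated libraries thus lay close together and below both vehicle libraries. The log2 fold change was -0.29 ± 0.083 for MFI8 (SE; edgeR unadjusted p = 0.00530, adjusted p = 0.357) and -0.30 ± 0.082 for MASM7 (unadjusted p = 0.00501, adjusted p = 0.466). The comparisons share the vehicle libraries, so they do not count as separate observations. Its TPM relative to Timm8b, another small TIM gene of the same family, was 0.148 and 0.155 in vehicle and 0.123 to 0.128 in the treated libraries, while Timm8b itself stood at 53.9 and 53.3 CPM in vehicle, 52.0 and 53.6 under MASM7 and 53.0 and 53.1 under MFI8.

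Timm13, the partner of Timm8a1 in the chaperone, had the opposite direction (chr10:80899450-80900969). It had 122 and 111 CPM in vehicle, 135 and 144 under MASM7, and 132 and 127 under MFI8. Every treated library was above both vehicle libraries. The log2 fold change was 0.26 ± 0.062 for MASM7 (edgeR unadjusted p = 0.00207, adjusted p = 0.466) and 0.15 ± 0.062 for MFI8 (unadjusted p = 0.0352, adjusted p = 0.463). With GC and length offsets the MASM7 value was 0.15 and the MFI8 value 0.11. The MFI8 value was 0.090 without vehicle replicate 2 and 0.22 without vehicle replicate 1. MFI8 against MASM7 gave -0.11 (95% interval -0.24 to 0.033; adjusted p = 0.739).

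**Figure D2:**
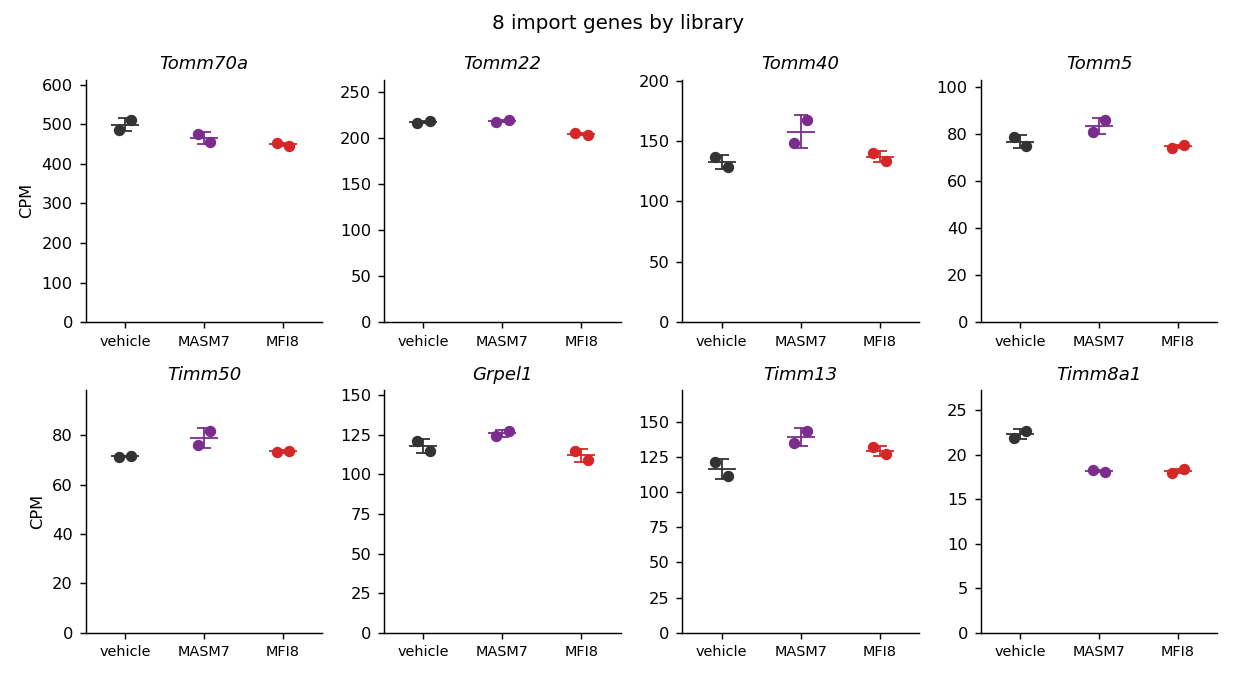
CPM (linear axes from 0) of 8 import genes in vehicle, MASM7 and MFI8; points are libraries (n = 2 per group), horizontal bars the mean and error bars the SD. For Timm8a1 the treated libraries lie at 17.99 to 18.4 CPM, below vehicle at 21.9 and 22.7, and for Tomm40 the MASM7 libraries (148 and 167 CPM) lie above the other 4.

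Among genes that were higher with MFI8 than in vehicle, Romo1 and Chchd4 followed Timm13 in order of p. Romo1 had a log2 fold change of 0.12 (edgeR adjusted p = 0.723), with CPM of 55.3 and 44.8 in vehicle, 52.3 and 60.7 under MASM7 and 56.8 and 52.3 under MFI8, so the groups overlapped. Its value was -0.021 without vehicle replicate 2, 0.28 without vehicle replicate 1 and 0.067 without MFI8 replicate 1. Chchd4 was at 63.1 and 63.2 CPM in vehicle, 64.5 and 63.9 under MASM7 and 65.5 and 65.1 under MFI8. The groups did not overlap, but MFI8 was above vehicle by a log2 fold change of only 0.048 (adjusted p = 0.815).

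With MASM7 most import genes lay slightly above vehicle. Over the 33 genes the log2 fold change against vehicle had a median of 0.023, with 22 higher and 11 lower, against 0.00067 over all genes. Both MASM7 libraries were above both vehicle libraries for 14 genes (42.4%, against 21.2% of all genes) and below them for 3 (9.09%, against 21.6%). Inner membrane genes had a median of 0.056 (8 higher and 2 lower). All 6 TIM23 genes had a fold change above 0 (median 0.13, from 0.021 to 0.18). Of these, 4 had both MASM7 libraries above both vehicle libraries, while Romo1 and Timm21 overlapped. Outer membrane genes had a median of 0.021 (6 and 3), intermembrane space genes 0.0074 (4 and 4) and matrix genes 0.044 (3 and 1). Leaving out 1 library, the outer median ran from -0.0047 (without vehicle replicate 2) to 0.047 (without vehicle replicate 1), so its direction rests on a single library. The inner median ran from 0.039 (without vehicle replicate 2) to 0.10 (without MASM7 replicate 1). The median of the 33 genes was 0.052 without vehicle replicate 1, 0.045 with GC and length offsets and 0.043 with a filter of 1 count in any library. It was 0.012 with library size alone and 0.0067 on log2(TPM + 1), where the medians of all genes were -0.010 and -0.015.

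Tomm40, the pore itself, was the outer membrane gene with the smallest p (chr7:19701313-19715438). It had 137 and 129 CPM in vehicle, 148 and 167 under MASM7, and 140 and 134 under MFI8. The MASM7 libraries were above the other 4, with the second replicate farthest out, while MFI8 and vehicle overlapped. The log2 fold change of MASM7 against vehicle was 0.25 ± 0.068 (SE; edgeR unadjusted p = 0.00486, adjusted p = 0.466), and that of MFI8 against MASM7 was -0.20 ± 0.068 (unadjusted p = 0.0138, adjusted p = 0.588). Without MASM7 replicate 2 these values were 0.16 and -0.11. Its relative Tomm40l overlapped between all groups, with 25.4 and 24.5 CPM in vehicle, 25.6 and 25.1 under MASM7 and 23.3 and 25.1 under MFI8.

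Timm50, the presequence receptor of TIM23 (chr7:28305516-28312072), had 71.3 and 71.7 CPM in vehicle, 76.2 and 81.9 under MASM7, and 73.2 and 73.8 under MFI8. Here MASM7 was highest and MFI8 lay between MASM7 and vehicle. MASM7 against vehicle was 0.14 ± 0.059 (edgeR unadjusted p = 0.0344, adjusted p = 0.477), and this value was 0.022 with GC and length offsets and 0.092 without MASM7 replicate 2. MFI8 against vehicle was 0.039 (edgeR adjusted p = 0.865) and MFI8 against MASM7 -0.10 (adjusted p = 0.728). Of the channel genes, Timm17a had 91.2 and 91.4 CPM in vehicle, 93.3 and 94.7 under MASM7 and 88.1 and 85.97 under MFI8, so the 3 groups did not overlap. Timm17b had 40.7 and 35.4, 40.9 and 41.2, and 41.2 and 37.2 CPM in the same order, and vehicle and MFI8 overlapped.

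**Figure D3:**
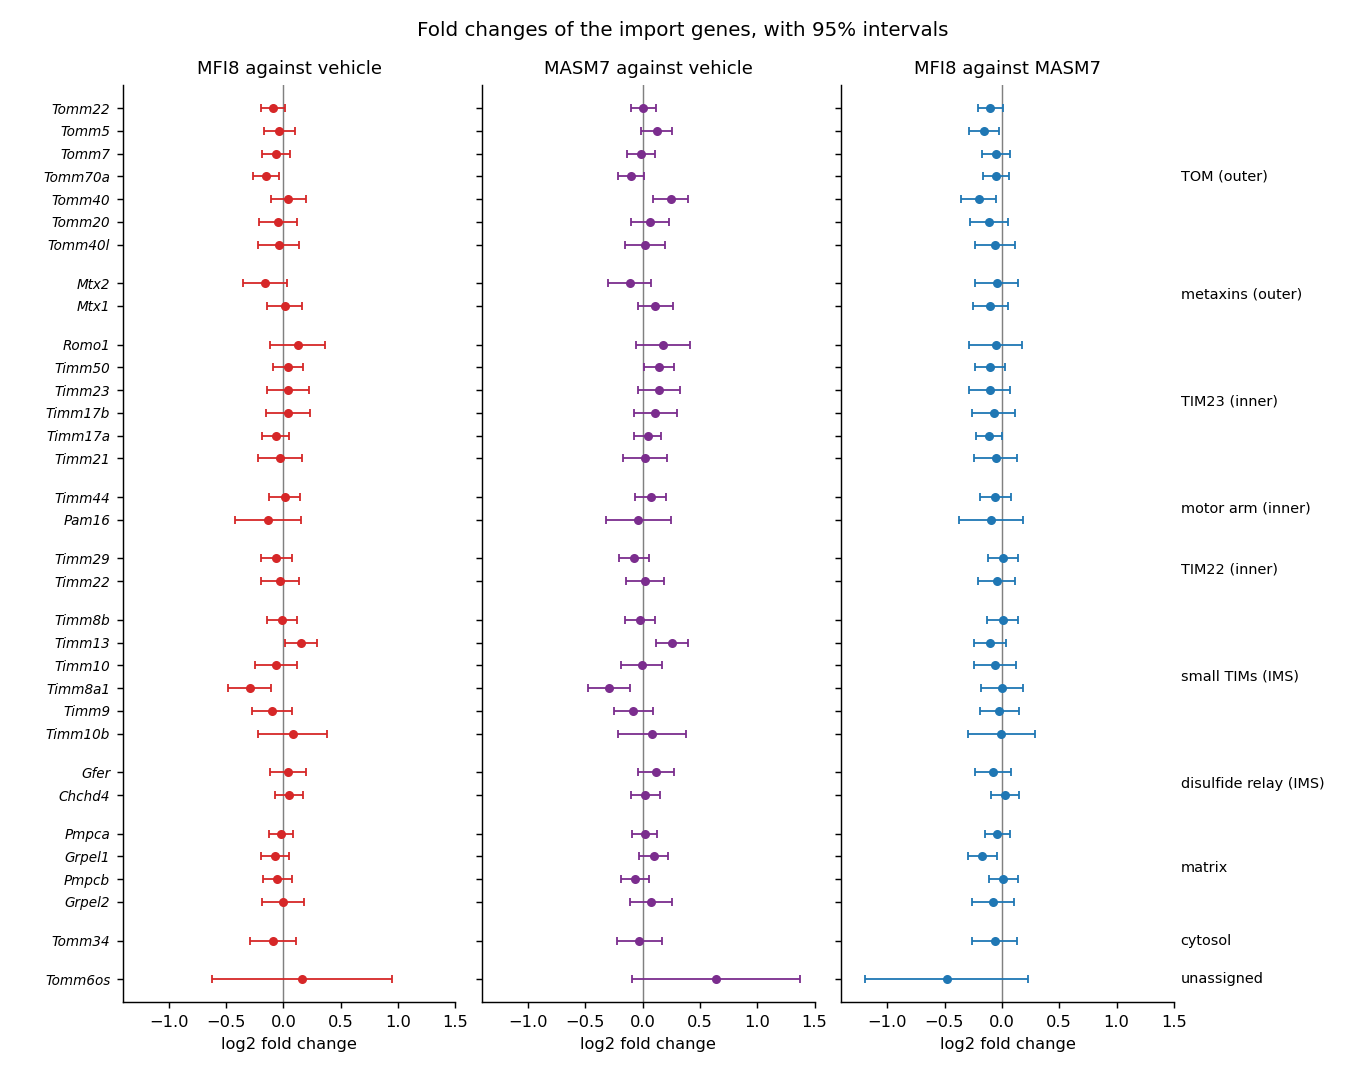
Log2 fold changes (edgeR) of the 33 import genes in the 3 comparisons, grouped by complex or compartment; points are estimates and bars 95% intervals. In the right panel all 9 outer membrane genes and 9 of 10 inner membrane genes lie left of 0, whereas the small TIM genes scatter around it; the interval of Tomm6os, which has few counts, is the widest.

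The comparison of the compounds with each other had the most one-sided counts, on the same libraries as the comparisons above. With MFI8, 28 of the 33 genes were lower than with MASM7 and 5 were higher, with a median log2 fold change of -0.061 against -0.0015 over all genes. Both MFI8 libraries were below both MASM7 libraries for 14 genes (42.4%, against 19.6% of all genes) and above them for 1 (3.03%, against 19.6%), which was Chchd4. All 9 outer membrane genes were lower (median -0.099, with 6 of 9 not overlapping), all 7 TOM genes among them. Inner membrane genes had 9 of 10 lower (median -0.064, with 4 not overlapping), Timm29 being the exception at 0.014, and that value was -0.013 without MFI8 replicate 2 and -0.014 without MASM7 replicate 2. Intermembrane space genes had a median of -0.012 (3 higher and 5 lower) and matrix genes -0.057 (1 and 3). Leaving out 1 library, the outer median ran from -0.10 (without MASM7 replicate 1) to -0.053 (without MFI8 replicate 2). The inner median ran from -0.11 (without MASM7 replicate 1) to -0.041 (without MASM7 replicate 2).

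The median per library over the 33 genes, as log2 CPM minus each gene's mean of the 6 libraries, was 0.0083 and -0.020 in vehicle, 0.026 and 0.064 under MASM7, and -0.019 and -0.070 under MFI8. The within-group SD of this library median was 0.0285. The MASM7 libraries were the highest and lay above both MFI8 libraries, while an MFI8 library and a vehicle library were about level. Without MFI8 replicate 2 the count was 23 lower of 33, and without MASM7 replicate 2 it was 25. The median was -0.098 without MFI8 replicate 1 and -0.094 without MASM7 replicate 1. The median was -0.020, and 24 genes were lower, when limma was run on log2(TPM + 1), and it was -0.040 with library size alone. All genes had medians of 0.038 and 0.020 under these settings.

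Grpel1, the nucleotide exchange factor of the import motor (chr5:36464998-36474080), had the smallest p of the import genes in this comparison. It had 121 and 115 CPM in vehicle, 124 and 128 under MASM7, and 115 and 109 under MFI8. The 3 groups did not overlap, although a vehicle and an MFI8 library were nearly equal. MFI8 against MASM7 was -0.17 ± 0.056 (SE; edgeR unadjusted p = 0.0127, adjusted p = 0.584). Its paralog Grpel2 had 53.4 and 51.4 CPM in vehicle, 58.6 and 51.5 under MASM7 and 55.3 and 49.4 under MFI8, and these overlapped.

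Tomm5, a small subunit that helps precursors into the pore (chr4:45105208-45108114), had 78.7 and 74.8 CPM in vehicle, 81.0 and 86.02 under MASM7, and 74.3 and 75.4 under MFI8. MASM7 stood above, and vehicle and MFI8 overlapped. MFI8 against MASM7 was -0.16 ± 0.059 (edgeR unadjusted p = 0.0236, adjusted p = 0.639). Tomm7, the other small subunit, had 85.9 and 83.5 CPM in vehicle, 82.4 and 85.2 under MASM7 and 80.8 in each MFI8 library. Tomm20 had 164 and 142, 161 and 158, and 154 and 141 CPM in vehicle, MASM7 and MFI8.

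Mtx2, the metaxin with the higher level (chr2:74825803-74878431), had 89.0 and 100.005 CPM in vehicle, 80.3 and 94.5 under MASM7, and 86.4 and 83.0 under MFI8. MFI8 was below vehicle (log2 fold change -0.16, edgeR adjusted p = 0.564) and MASM7 overlapped with it (-0.11, adjusted p = 0.639). The MASM7 value was -0.00092 without MASM7 replicate 1, -0.24 without MASM7 replicate 2, -0.20 without vehicle replicate 1 and -0.027 without vehicle replicate 2, and it was -0.050 with GC and length offsets. Mtx1 had 51.5 and 52.9, 54.8 and 58.0, and 55.0 and 50.3 CPM in the same groups.

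The remaining pairs showed no common direction. The protease genes had 283 and 284 CPM (Pmpca) and 128 and 138 CPM (Pmpcb) in vehicle, 292 and 282 and then 125 and 129 under MASM7, and 280 and 278 and then 128 and 129 under MFI8. MFI8 against MASM7 was 0.013 for Pmpcb, with an interval from -0.11 to 0.14, and turned to -0.022 with the GC and length offsets and to -0.0086 without MASM7 replicate 1. Timm9 had 38.8 and 38.0 CPM in vehicle, 38.2 and 34.4 under MASM7 and 37.0 and 34.6 under MFI8. Its partner Timm10 had 45.8 and 41.7, 42.1 and 44.9, and 44.2 and 39.4 CPM. For the carrier translocase, Timm29 had 72.3 and 69.6 CPM in vehicle, 68.7 and 66.1 under MASM7 and 66.8 and 69.2 under MFI8, so that treated libraries were all below vehicle by at most a log2 fold change of -0.074. Timm23, whose counts are uncertain, had 29.99 and 27.3, 30.4 and 32.8, and 29.35 and 29.39 CPM in the 3 groups. Gfer had 48.9 and 51.6, 51.7 and 57.3, and 51.95 and 51.3 CPM, and only MASM7 lay above vehicle in both libraries. Cytosolic Tomm34 had 66.5 and 55.6, 58.5 and 60.98, and 60.2 and 54.3 CPM, which overlapped. The antisense RNA Tomm6os had the largest fold change of all 33 with MASM7, 0.64 on the log2 scale, but with an interval from -0.096 to 1.4.

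**Figure D4:**
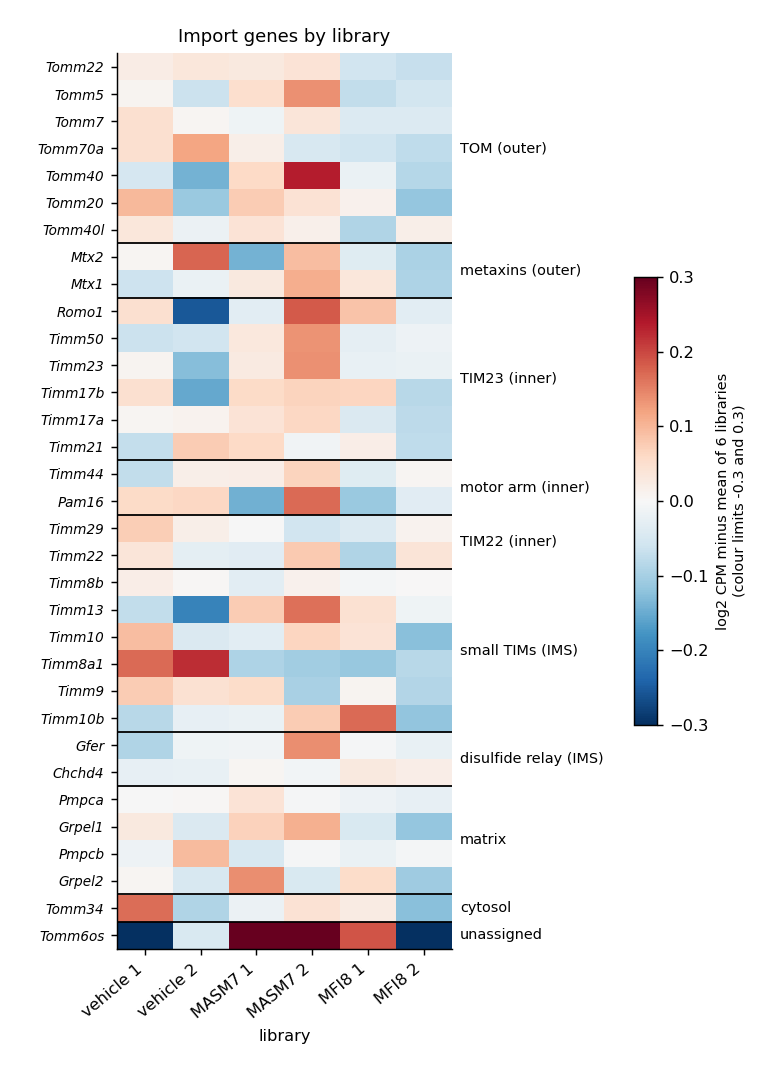
Log2 CPM of each import gene in each library minus its mean over the 6 libraries, as colour limited at -0.3 and 0.3, with black lines between complexes or compartments. Red prevails in the MASM7 replicate 2 column and blue in the MFI8 replicate 2 column, with library medians of 0.064 and -0.070; Timm8a1 is red in vehicle alone.

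Outer and inner membrane genes were then set against each other. The median fold change of outer membrane genes was below that of inner membrane genes in each comparison, by 0.040 for MFI8 against vehicle, 0.035 for MASM7 against vehicle and 0.035 for MFI8 against MASM7 on the log2 scale. This difference moved with single libraries. Against vehicle, it was -0.0012 for MFI8 and -8.1e-05 for MASM7 without vehicle replicate 1, and it was -0.068 or -0.070 for MFI8 without MFI8 replicate 1 or 2 and -0.088 for MASM7 without MASM7 replicate 1. For MFI8 against MASM7 it turned to 0.0071 without MASM7 replicate 1 and 0.034 without MFI8 replicate 2, and it was -0.0053 without MFI8 replicate 1. With GC and length offsets the difference from vehicle was -0.0024 for MASM7 and -0.017 for MFI8. The within-group SD of this outer minus inner value over libraries was 0.023 on the log2 scale. Outer membrane genes thus stayed below inner membrane genes in each fit without 1 library for both comparisons with vehicle, by values that came close to 0, and not for MFI8 against MASM7.

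Outer membrane genes summed to 1598 ± 1.497 TPM in vehicle, 1617 ± 32.2 under MASM7 and 1550 ± 15.5 under MFI8 (mean ± SD, n = 2), with both MFI8 libraries (1561 and 1539) below the other 4. Inner membrane genes summed to 715 ± 36.2, 758 ± 38.3 and 748 ± 13.01 TPM, and these groups overlapped. The outer to inner ratio was 2.16 and 2.32 in vehicle, 2.18 and 2.09 under MASM7, and 2.06 and 2.08 under MFI8. MFI8 was lowest, but its higher library lay just under the lower MASM7 library. The vehicle libraries were the farthest apart, and Romo1 had 260 TPM in the first of them and 214 in the second.

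Other genes of the pathway, not in the list by name, did not pass the test either. These 17 genes include Samm50 (the core of the beta-barrel insertion machinery), Hspa9 (the matrix Hsp70 of the motor), Dnajc15 and Dnajc19 (its co-chaperones), Agk (a TIM22 subunit), Oxa1l (an insertase), and Hspd1 and Hspe1 (the folding chaperonins). All were tested, 0 passed at an adjusted p under 0.05 in edgeR and 0 at an unadjusted p under 0.05. For MFI8 against vehicle 6 were higher and 11 lower (median -0.013, smallest adjusted p = 0.641), for MASM7 against vehicle 8 and 9 (median -0.0016, smallest adjusted p = 0.501), and for MFI8 against MASM7 7 and 10 (median -0.020, smallest adjusted p = 0.818). Hspa9 had a log2 fold change of -0.046 under MFI8 and -0.036 under MASM7 against vehicle, and Samm50 0.019 and 0.064.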

How the data were processed

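PolyA RNA was sequenced from 6 libraries of MEFs, 2 per group. The authors trimmed reads with Trimmomatic, aligned them to mm10/GRCm38 with STAR and counted reads over exons with featureCounts. The deposited values used were these raw counts per gene and the authors' TPM, which equalled counts over GENCODE exonic length, up to a factor per library, for all 33 import genes (within 0.1%). The authors' normalized table, whose signal values they made with DESeq2 1.26.0, was read only to recover its size factors. No result given here rests on it. Other versions, the annotation and the strand setting are not given in the sources used here. Groups came from the labels, and doses and the 6 h duration from the study.

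Counts were fitted for all 6 libraries with edgeR 4.0.16 in R 4.3.3 (TMM factors 0.9906 to 1.0083, filterByExpr by group, quasi-likelihood F test, Benjamini-Hochberg over 14290 genes, threshold 0.05, no block). DESeq2 1.42.0 and limma 3.58.1 on log2(TPM + 1) served as alternatives. The procedure was tested on simulated data, drawn with the same spread for every gene and with independent libraries, unlike the real counts in their spread. The genes, the lists and the rule for genes given in every library (in each comparison the 3 smallest p-values per direction, the highest gene of TOM, TIM23, TIM22 and the small TIMs, and the paralog pairs) were chosen with earlier results of these data known. Gene models were GENCODE vM21 on GRCm38, and promoters came from RefSeq. Protein sequences were not used here. The edgeR p-values rest on the spread between the 2 libraries of a group, pooled over the groups and moderated by that of other genes. Each library was counted as a separate sample. Replicates differed by more than counting error (chi-square per degree of freedom 7.07 to 7.71), which does not by itself show that they were independent.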

Additional observations from a re-analysis of the deposited data

How the results depend on the processing

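Across 17 alternatives, 152 of the 204 values for counts of calls, medians and outer minus inner differences stayed within the limits set (1.5 times for counts, 1 SD between libraries for medians), and 282 of the 306 fold changes of named genes kept direction and side of the threshold. Genes called, which were 0 in each comparison, numbered 256 (MFI8 against vehicle), 127 (MASM7 against vehicle) and 168 (MFI8 against MASM7) with a filter of 1 count in any library, 48, 2 and 29 with DESeq2, and 1 and 2 in the last 2 comparisons when only their groups were fitted. Import genes called numbered 2 of 33 for MASM7 against vehicle with the 1 count filter (Timm13 and Tomm40), where 0.475% of 26760 genes were called. Leaving out 1 replicate gave 0 to 26, 0 to 2 and 0 to 24 genes called, and no import gene. With 1 library left in a group, that library is assumed to vary like the others.

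The replicate numbers are shared by the groups, but nothing in the sources used here says that a number marks a shared batch, and there are only 2. With the replicate block, edgeR called 720, 554 and 439 genes (5.04%, 3.88% and 3.07% of those tested), and of the 33 import genes 2 (Timm8a1 and Tomm70a, lower), 3 (Timm13 and Tomm40, higher, and Timm8a1, lower) and 2 (Grpel1 and Tomm40, lower). DESeq2 with the block called 218, 182 and 108 genes (2.70%, 4.09% and 1.06% of those given an adjusted p). Of these, 2 were import genes, Timm13 and Tomm40 for MASM7 against vehicle, where Timm8a1 was given no adjusted p. The block with GC and length offsets called 595, 152 and 675 genes (4.16%, 1.06% and 4.72%), and 1, 3 and 5 import genes. Same-numbered libraries deviated together with r = 0.188, 0.152 and 0.165 over all genes, and with -0.067, -0.288 and 0.096 over the 33 import genes.

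The median of the import genes was -0.0031 for MFI8 against vehicle and -0.020 for MFI8 against MASM7 with limma on log2(TPM + 1). The medians of all genes were 0.025 and 0.038 there. Leaving out 1 replicate gave -0.056 to -0.0077 for MFI8 against vehicle, 0.019 to 0.052 for MASM7 against vehicle and -0.098 to -0.044 for MFI8 against MASM7. The outer minus inner difference for MASM7 against vehicle was -0.0024 with GC and length offsets and -0.0033 with the block added. Its ranges without 1 replicate were -0.070 to -0.0012 (MFI8 against vehicle), -0.088 to -8.1e-05 (MASM7 against vehicle) and -0.044 to 0.034 (MFI8 against MASM7, where it turned to 0.0071 without MASM7 replicate 1 and 0.034 without MFI8 replicate 2). Directions turned for Romo1, MFI8 against vehicle (-0.021 without vehicle replicate 2, with a range up to 0.28 without 1 replicate), for Tomm70a, MASM7 against vehicle (0.0051 with the offsets and 0.0050 with the block and offsets), and in MFI8 against MASM7 for Pmpcb (-0.022 with the offsets, -0.023 with the block and offsets and -0.0086 without MASM7 replicate 1, with a range up to 0.035) and Timm29 (-0.014 without MASM7 replicate 2 and -0.013 without MFI8 replicate 2, with a range up to 0.042). The cause was not tested. Library totals of 22791792 to 30677751 counts leave Tomm6os, at 15 to 38 counts, with the least precision. A planned search of protein sequences was not run.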
